A study of Mus musculus with 2 samples.

Results

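The 9 genes described here are used as markers of naive and memory T lymphocytes: Tcf7, Lef1, Ccr7, Il7r, Klf2, S1pr1, Slamf6, Id3 and Satb1. They were chosen by symbol, without use of measured values in the rule, although earlier results of these data were known. Each was found in the count matrices of both libraries among 31253 listed genes. The cells were CD45+ cells, that is, blood-derived and resident immune cells, from GL261 gliomas in the brains of C57BL/6 mice. GL261 is a mouse glioma line that was injected into the brain. 1 library came from mice given ibudilast, a phosphodiesterase inhibitor, by gavage at 20 mg/kg 5 times a week over 2 weeks. The other came from mice given PBS by the same route, although its label calls it untreated. Both groups carried the tumour, no difference in genotype was labelled, and the number of mice behind each library was not given in the sources used here.

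Naive and central memory T cells circulate between blood and lymphoid organs, and a shared set of genes marks that state. TCF-1 (Tcf7), LEF-1 (Lef1) and SATB1 are nuclear factors of T cell development and stem-like memory, KLF2 maintains the expression of homing receptors such as S1pr1, and ID3 restrains E proteins. CCR7 guides cells into lymph nodes, S1PR1 lets them leave again, the interleukin-7 receptor chain IL7R supports survival, and SLAMF6 is a receptor carried by stem-like exhausted T cells. Several of these genes also act outside T cells: CCR7 in migratory dendritic cells and B cells, KLF2 in many leukocytes and endothelium, and TCF-1 in innate lymphocytes.

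The ibudilast library held 8483 barcodes and 82196922 UMIs (unique molecular identifiers, each counting 1 captured transcript), against 8968 barcodes and 119113794 UMIs in the PBS library. After filtering, 6655 ibudilast cells with a median of 7859 UMIs remained, against 7666 PBS cells with a median of 11660 UMIs. A limit on mitochondrial reads removed 15.6% of ibudilast barcodes and 8.93% of PBS barcodes, and 19 barcode sequences occurred in both libraries. The labels call the cells tumour-infiltrating lymphocytes, but macrophages, taken as cells with at least 10 C1q UMIs and no other class's markers, numbered 2139 with ibudilast and 4140 with PBS. Cell classes were set by marker genes that exclude the 9 genes. Every class other than macrophages also had to hold under 5 UMIs of C1qa, C1qb and C1qc, which mark macrophages (the strict gate). This limit is harder to meet for a deeply sequenced cell and left out most marked barcodes, so a wider gate, chosen after the data were seen, asked for C1q UMIs under 0.2% of a cell's UMIs. The strict gate gave 392 ibudilast and 141 PBS T cells, and the wider gate 672 and 432. Natural killer (NK) cells numbered 185 and 58 under the strict gate and 252 and 119 under the wider gate, in ibudilast and PBS. With 1 library per group there is no replicate check: levels are given as CPM, a gene's UMIs per 1000000 UMIs of its class, and all intervals are exact 95% intervals that cover counting error only.

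Most transcripts of this T cell gene set did not lie in gated T cells. Of all Tcf7 UMIs in kept cells, T cells under the wider gate held 16.1% in the ibudilast library and 12.9% in the PBS library, and for Lef1 18.4% in each library. Migratory dendritic cells held 65.2% of Ccr7 UMIs in the ibudilast library and 63.5% in the PBS library, against 3.28% and 2.97% in T cells. Macrophages held 23.7% of Klf2 UMIs and 31.0% of Slamf6 UMIs in the ibudilast library, and 45.7% and 59.7% in the PBS library. Barcodes that met a lymphoid or dendritic gate but lay over the C1q limit held 33.3% of Tcf7 UMIs in the ibudilast library and 46.2% in the PBS library, so a large part of the signal sits in cells that no class includes. T cells themselves supplied 9.85% of all UMIs of kept cells in the ibudilast library and 4.32% in the PBS library. Migratory dendritic cells supplied 2.17% and 1.26%, and macrophages 31.5% and 58.2%. The macrophage share of Slamf6 was thus near their share of all UMIs, and that of Klf2 below it, in both libraries. The barcodes over the C1q limit were 15.6% and 16.1% of kept cells, with Tcf7 at 10.6 and 10.1 CPM.

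**Figure D1:**
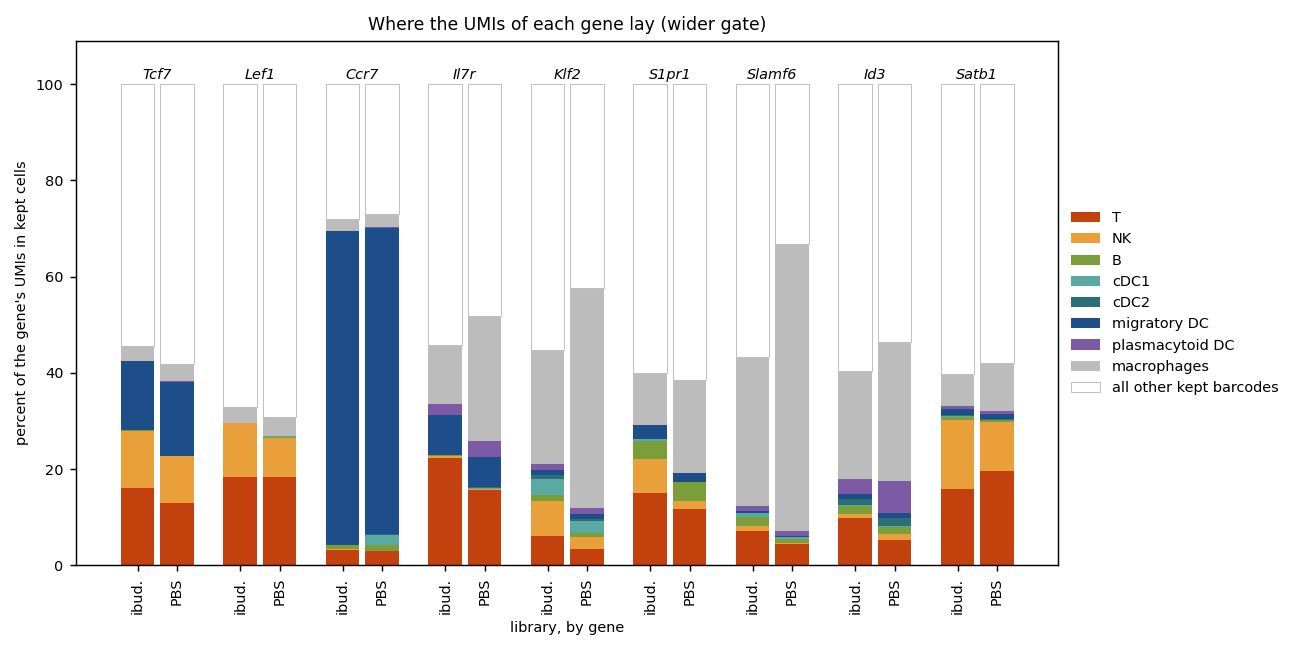
Percent of each gene's UMIs in kept cells that fell in each cell class under the wider gate, as stacked bars, ibudilast and PBS side by side, with all other kept barcodes in white. Ccr7 UMIs lie mostly in migratory dendritic cells (65.2% ibudilast, 63.5% PBS), while T cells hold 16.1% and 12.9% of Tcf7 UMIs.

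Tcf7 was carried by T cells, NK cells and migratory dendritic cells (dendritic cells that have matured and express Fscn1 and Ccl22). In T cells it reached 15.0 CPM (47 UMIs) with ibudilast and 6.16 CPM (6 UMIs) with PBS under the strict gate, and 13.0 and 13.9 CPM under the wider gate. NK cells held 36.6 CPM with ibudilast and 72.3 CPM with PBS under the strict gate, and 46.8 and 43.8 CPM under the wider gate. Migratory dendritic cells held 53.2 CPM with ibudilast and 85 CPM with PBS under the strict gate, from 54 UMIs in each library, and 52.4 and 56.8 CPM under the wider gate. Within each library and gate the migratory dendritic level was above the T cell level, by 3.54-fold (2.35 to 5.35) in ibudilast and 13.8-fold (5.94 to 39.2) in PBS under the strict gate, and by 4.03-fold and 4.08-fold under the wider gate. No Tcf7 UMI was found in either conventional dendritic class, and macrophages held 0.811 CPM with ibudilast and 0.296 CPM with PBS.

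The Tcf7 UMIs of migratory dendritic cells came without Lef1, its closest relative. Lef1 had 0 UMIs in migratory dendritic cells of both libraries under both gates, which by the limit of 3 UMIs, separate from the 95% intervals, allows up to 2.96 CPM with ibudilast and 4.72 CPM with PBS under the strict gate. The intervals for its ratio to T cells ended at 0.263 in ibudilast and 0.397 in PBS under the strict gate. T cell receptor transcripts were scarce in the same cells: under the wider gate Cd3e had 1 UMI with ibudilast and 3 with PBS, and Trac had 12 and 10. The gate left out barcodes with 2 or more of 4 T cell markers, Cd3e and Trac among them. Their scarcity was therefore largely set by the gate and does not show where the Tcf7 UMIs came from. After each cell was thinned to 2000 UMIs, 10.6% of ibudilast and 12.4% of PBS migratory dendritic cells held a Tcf7 UMI under the wider gate (26.4% and 28.4% before thinning, at median depths of 6833 and 7505 UMIs). Macrophages, at median depths of 8777 and 13563 UMIs, held one in 0.245% and 0.0739% of thinned cells. Migratory dendritic cells with a Tcf7 UMI had 3.10 times the Bcl9l level of those without in the ibudilast library (59.6 and 19.2 CPM) and 3.47 times in the PBS library (44.1 and 12.7 CPM). Bcl9l encodes a coactivator of the beta-catenin and TCF complex, and its ratios under the strict gate were 3.19 and 3.42. Bcl9l, like Tcf12 below, was chosen after values were seen, so its ratios are descriptions only. Tcf12, an E protein gene, had ratios of 3.99 and 8.82 under the wider gate but 0.912 and 1.23 under the strict gate, so its difference rested on cells outside the strict gate. Ccr7 did not follow Tcf7 in these cells under the wider gate, at 0.999 (0.927 to 1.08) times in ibudilast and 0.932 (0.862 to 1.01) times in PBS.

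Lef1 was low in T cells and higher in NK cells. It stood at 14.4 CPM with ibudilast and 16.4 CPM with PBS in T cells under the strict gate, and at 11.8 and 17.0 CPM under the wider gate. NK cells held 35.6 and 44.9 CPM under the strict gate and 35.4 and 31.0 CPM under the wider gate. The NK level was 2.47 and 2.73 times the T cell level under the strict gate, in ibudilast and PBS, and 3.00 and 1.82 times under the wider gate. Satb1, a chromatin organiser, showed the same order, with NK cells at 259 and 252 CPM and T cells at 59.2 and 77.1 CPM under the strict gate. Its NK to T cell ratio was 4.37 and 3.27 under the strict gate, and 4.44 and 2.13 under the wider gate.

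**Figure D2:**
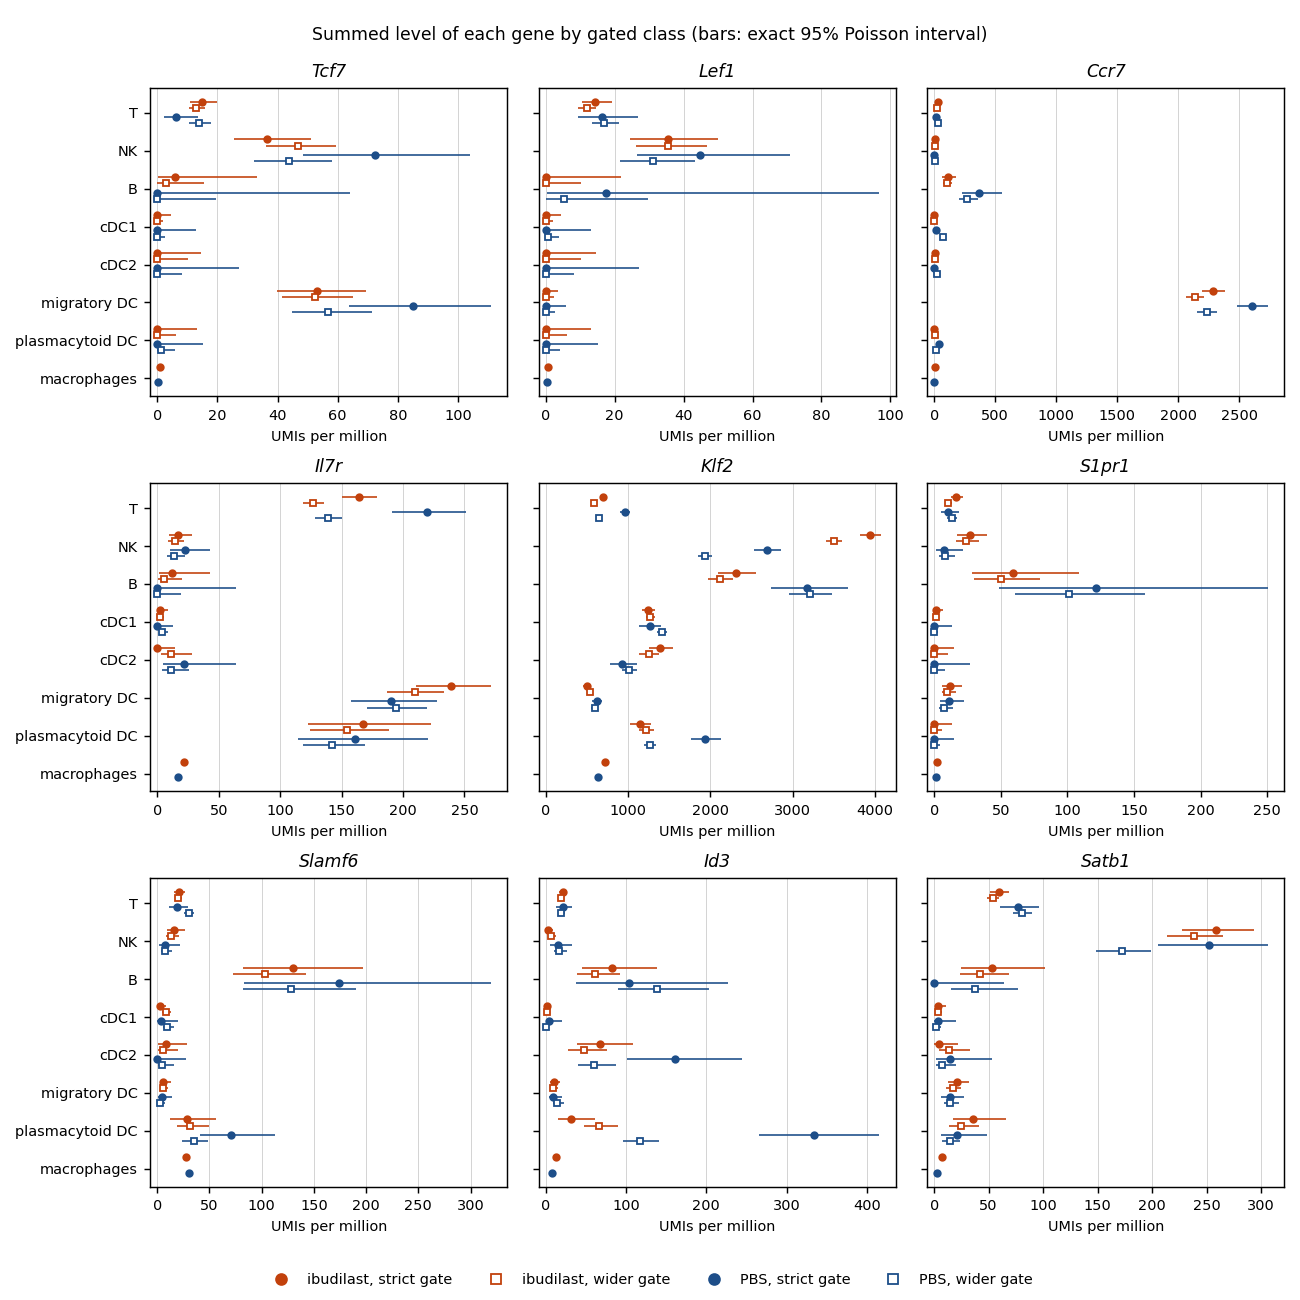
Level of each gene in CPM by cell class, ibudilast and PBS, for both gates, with exact 95% counting intervals and 1 library per group. Klf2 is highest in NK and B cells, Ccr7 in migratory dendritic cells, and Lef1 has 0 UMIs in migratory dendritic cells.

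The Klf2 promoter is shown because the ibudilast to PBS ratios of Klf2 lay above 1 in NK cells and below 1 in B cells under both gates. The 300 bases around its RefSeq start (GRCm38.p6, plus strand, chr8:72318812-72319111, 250 before and 50 after the start) are printed 5′ to 3′, and capitals mark a MEF2-type palindrome.
Klf2 promoter: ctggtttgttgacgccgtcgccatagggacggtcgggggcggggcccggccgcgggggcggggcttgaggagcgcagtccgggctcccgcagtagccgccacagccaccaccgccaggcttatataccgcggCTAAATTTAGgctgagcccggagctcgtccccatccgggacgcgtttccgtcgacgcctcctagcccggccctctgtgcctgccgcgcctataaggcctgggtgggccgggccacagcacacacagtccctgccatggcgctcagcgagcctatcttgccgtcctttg
Searched on both strands, this motif was present in 13 of 32851 promoter windows of the same length, or 0.0396%, and among the 15 windows of the 9 genes only in that of Klf2. The KLF-type letters CACCC were present in 57.5% of all windows and in 12 of those 15. Some genes had more than 1 window, and these 12 belonged to Id3, Klf2, Lef1, Satb1 and Tcf7. The TCF-type letters CTTTGAT occurred in 3.73% of all windows and in 0 of the 15, and the E-box CAGCTG in 16.3% of all windows and in 3 of the 15. Windows were available for 7 of the 9 genes, not for Ccr7 and S1pr1. A match describes letters and not a site in use.

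Klf2 UMIs were abundant in NK and B cells. NK cells held 3942 CPM with ibudilast and 2689 CPM with PBS under the strict gate, and 3500 and 1936 CPM under the wider gate. B cells held 2311 and 3178 CPM under the strict gate and 2117 and 3206 CPM under the wider gate. T cells stood lower, at 694 and 962 CPM under the strict gate and 589 and 652 CPM under the wider gate, and macrophages held 715 and 633 CPM. The NK level exceeded the T cell level in both libraries, 5.68-fold in ibudilast and 2.80-fold in PBS under the strict gate, and 5.94-fold and 2.97-fold under the wider gate. Thinned to 2000 UMIs, 40.7% of ibudilast and 42.7% of PBS T cells held a Klf2 UMI under the wider gate, at median depths of 7604 and 8351 UMIs, below the 56.4% and 55.0% of macrophages. Unthinned, 61.3% and 66.9% of T cells and 77% and 82.5% of macrophages held a Klf2 UMI.

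Other members stood out from macrophages in the same thinned T cells. Tcf7 was found in 3.17% of ibudilast and 3.03% of PBS T cells (9.23% and 9.03% unthinned), and Lef1 in 2.41% and 4.43%, against 0.0979% and 0.0493% of macrophages. Il7r was found in 24.9% and 23.8% of T cells and in 3.53% and 2.86% of macrophages, and Satb1 in 13.0% and 15.2% of T cells and in 1.57% and 0.641% of macrophages. Slamf6 was found in 4.07% and 5.83% of T cells against 5.29% and 5.82% of macrophages. In neither library did the T cell share of Slamf6 lie clearly above that of macrophages.

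S1pr1, the egress receptor whose transcription KLF2 supports, was sparse. In NK cells it had 25 UMIs (26.9 CPM) with ibudilast and 3 UMIs (7.48 CPM) with PBS under the strict gate, and 34 UMIs (24.1 CPM) and 9 UMIs (8.21 CPM) under the wider gate. T cells held 16.6 and 10.3 CPM, and 10.5 and 13.1 CPM, under the strict and wider gates. B cells held 59.3 and 122 CPM from 10 and 7 UMIs under the strict gate, and migratory dendritic cells 11.8 and 11.0 CPM.

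Ccr7 marked migratory dendritic cells by far the most. They held 2285 CPM with ibudilast and 2604 CPM with PBS under the strict gate, and 2133 and 2233 CPM under the wider gate. B cells held 113 and 365 CPM, and 103 and 272 CPM. T cells held only 27.5 and 13.4 CPM under the strict gate and 23.7 and 30.5 CPM under the wider gate, so the migratory dendritic level was 83.1-fold the T cell level in ibudilast and 195-fold in PBS under the strict gate. In the wider gate 94 of the 102 Ccr7 UMIs of PBS cDC1 (conventional type 1 dendritic cells) came from 1 cell, so that class gives no usable level. Il7r was higher in migratory dendritic cells, at 239 and 191 CPM under the strict gate, and in T cells, at 164 and 220 CPM, than in NK cells, at 17.2 and 22.4 CPM. Plasmacytoid dendritic cells held 167 and 161 CPM of Il7r. The NK to T cell ratio of Il7r was 0.105 and 0.102 under the strict gate, and 0.112 and 0.0986 under the wider gate.

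Slamf6 was no higher in T cells than in macrophages, and levels of Id3 rested in part on single cells. Slamf6 stood at 21.1 CPM with ibudilast and 18.5 CPM with PBS in T cells under the strict gate, against 27.1 and 30.3 CPM in macrophages. B cells held 130 and 174 CPM of Slamf6. T cell subclasses differed: under the wider gate conventional CD4 T cells held 45.6 CPM of Slamf6 with ibudilast and 81.6 CPM with PBS. Regulatory T cells held 53.9 and 22.7 CPM there, and CD8 T cells 7.77 and 10.8 CPM. In T cells Id3 stood at 21.1 and 21.6 CPM under the strict gate, where 30 of the 66 ibudilast UMIs lay in 1 cell. Plasmacytoid dendritic cells held 32 and 334 CPM of Id3, but 44 of the 81 PBS UMIs lay in 1 cell. Macrophages held 13.4 and 7.77 CPM of Id3.

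T cell subclasses differed within each library. Il7r was lower in CD8 T cells than in conventional CD4 T cells in both libraries and gates, at 124 and 214 CPM in ibudilast and 112 and 267 CPM in PBS under the strict gate. The ratios of CD8 to CD4 were 0.580 and 0.420 under the strict gate and 0.550 and 0.421 under the wider gate. Ccr7 was likewise lower in CD8 T cells, at 0.316 and 0.216 times under the strict gate and 0.283 and 0.323 times under the wider gate. Gamma-delta T cells, of which there were only 13 ibudilast and 7 PBS cells under the strict gate, held 855 and 809 CPM of Il7r and 3771 and 7211 CPM of Klf2. Their Klf2 level was 4.15 and 12.3 times that of conventional CD4 T cells under the strict gate, and their Il7r level 4.0 and 3.03 times.

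**Figure D3:**
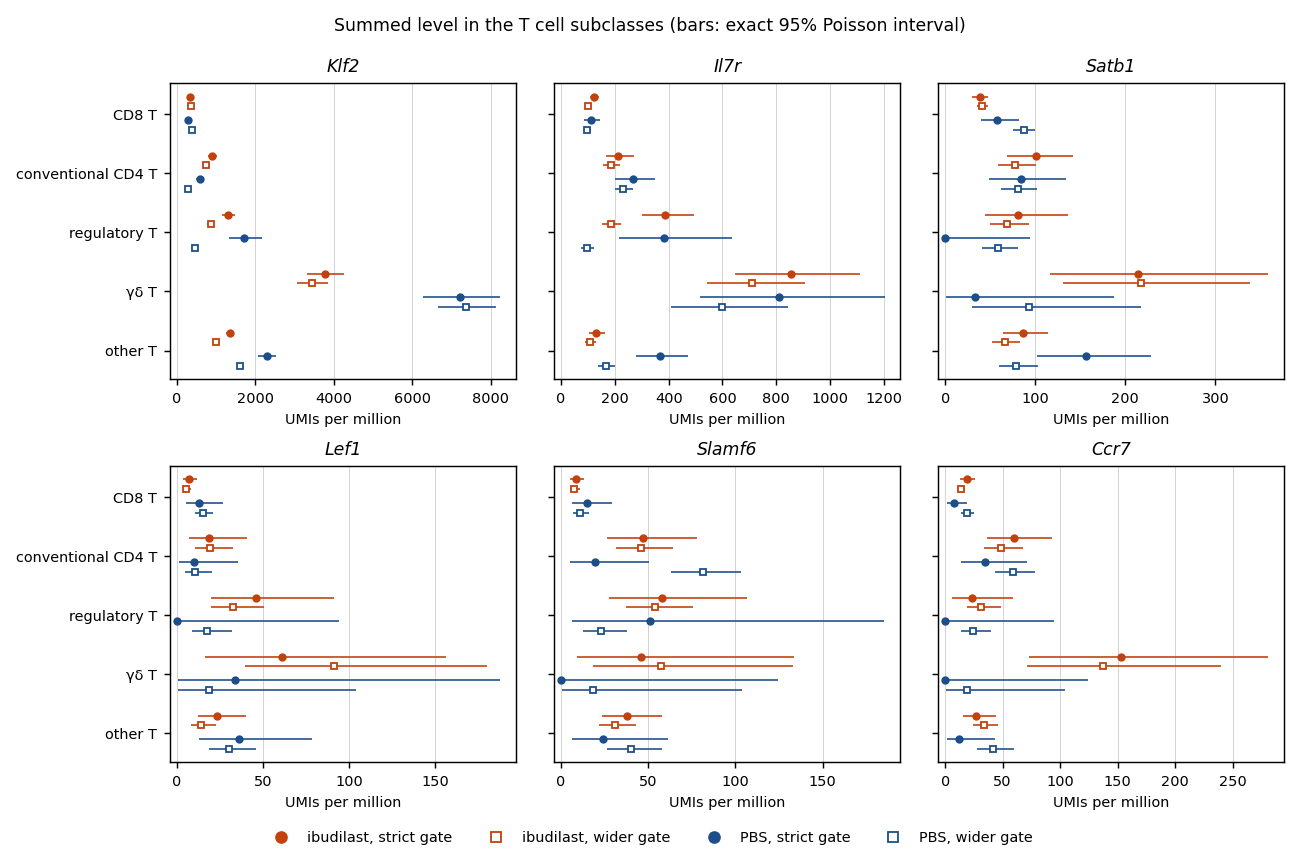
Level of Klf2, Il7r, Satb1, Lef1, Slamf6 and Ccr7 in CPM in 5 T cell subclasses, ibudilast and PBS, for both gates, with exact 95% counting intervals. Gamma-delta T cells carry the highest Klf2 and Il7r levels, from 13 ibudilast and 7 PBS cells under the strict gate.

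Splitting T cells by whether they held a Tcf7 UMI asked which other genes travel with it. Under the wider gate 62 ibudilast cells had one and 610 had none, and in the PBS library the numbers were 39 and 393, with median depths of 10421 and 7515 UMIs, and 8646 and 8323 UMIs. Lef1 was at 28.1 CPM with and 9.55 CPM without a Tcf7 UMI in the ibudilast library, and at 43.3 and 13.4 CPM in the PBS library, ratios of 2.94 (1.75 to 4.81) and 3.24 (1.91 to 5.33). Lef1 thus ran with Tcf7 in both libraries. Ccr7 had ratios of 4.55 and 4.32, S1pr1 of 2.68 and 3.14, and Slamf6 of 2.94 and 2.11, in the same order. Id3 had ratios of 1.95 and 9.85 and Satb1 of 1.39 and 1.38. Klf2 had ratios of 1.40 and 2.44, and Il7r was near 1, at 0.945 (0.761 to 1.16) and 1.21 (0.960 to 1.52). Under the strict gate, where only 6 PBS cells held a Tcf7 UMI, Lef1 had ratios of 3.51 and 6.65 and Slamf6 of 3.27 and 14.4. There the cells with a Tcf7 UMI were the shallower ones, at medians of 5090 and 6599 UMIs in ibudilast and 4225 and 6233 UMIs in PBS.

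Genes of other lists separated along the same split. Dapl1, a marker of naive T cells in mice, had 64.4 CPM with and 9.71 CPM without a Tcf7 UMI in the ibudilast library, and 75.7 and 9.59 CPM in the PBS library, ratios of 6.63 and 7.90. The cytotoxic pore protein gene Prf1 was lower with Tcf7, at 0.197 and 0.186 times, as were the inhibitory receptor gene Havcr2, at 0.227 and 0.230 times, and the residency receptor gene Cxcr6, at 0.230 and 0.218 times. Within CD8 T cells under the wider gate the same split gave ratios of 9.51 and 9.40 for Slamf6 and 10.7 and 7.39 for Ccr7, but only 30 and 19 cells held a Tcf7 UMI.

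**Figure D4:**
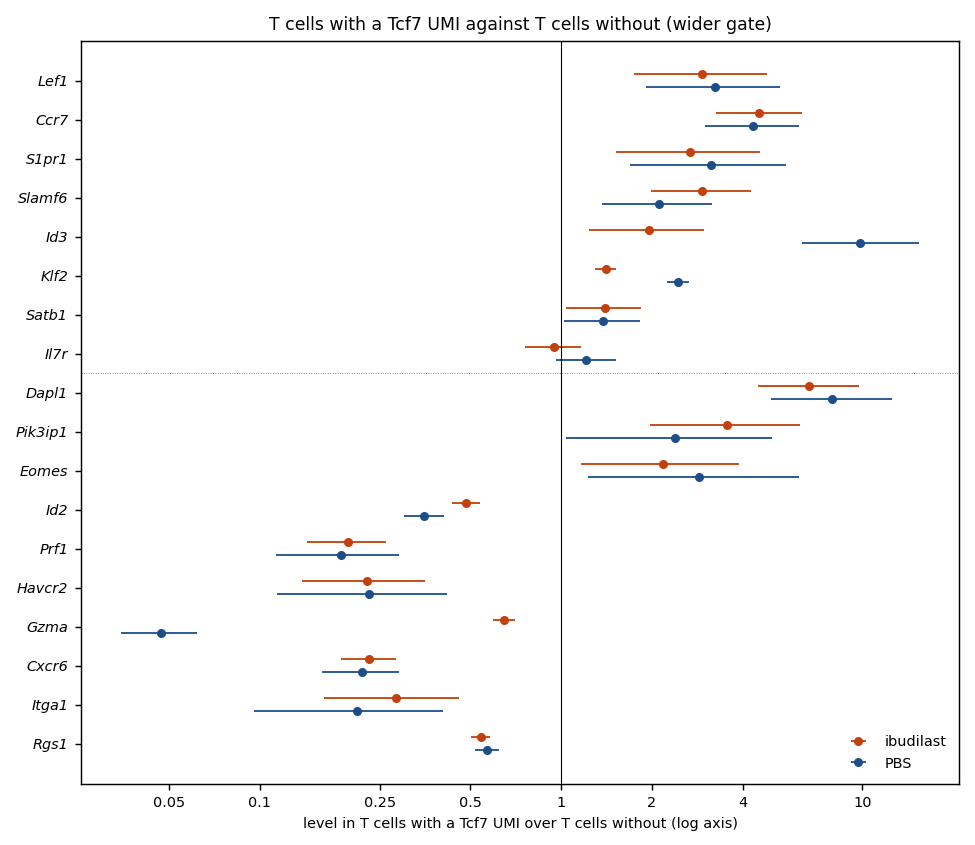
Ratio of levels in T cells with a Tcf7 UMI over T cells without, for the other 8 members (above the dotted line) and genes of fixed lists (below it), under the wider gate, in the ibudilast and PBS libraries, with exact 95% counting intervals on a log axis. Lef1 lies at 2.94 and 3.24 and Il7r at 0.945 and 1.21.

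Comparing ibudilast with PBS, Klf2 and S1pr1 were called higher in NK cells under both gates, and Satb1 was called lower in T cells under both gates. In NK cells Tcf7, Lef1 and Il7r, 3 of the 6 genes tested under the strict gate, lay below 1 there and above 1 under the wider gate. In T cells 4 of 9 ratios lay on opposite sides of 1 under the strict and the wider gate. A gene with at least 20 UMIs over both libraries is called higher when its ibudilast level exceeded its PBS level by more than 25%, and lower when it fell short by more than 20%. In NK cells under the strict gate 2 of 6 genes were higher, against 27.1% of all genes tested, and 3 lower, against 20.3%. Under the wider gate 4 of 8 were higher, against 22.2% of all genes, and 1 lower, against 27.5%. Klf2 was 1.47-fold (1.37 to 1.57) higher under the strict gate and 1.81-fold (1.72 to 1.90) higher under the wider gate, and stayed above 1 in every alternative run, at 1.16 to 1.88, although it fell below the limit for a call when cells were thinned to 2000 UMIs (1.16) or weighted alike (1.24). Thinned under the wider gate, 92.0% of ibudilast and 78.8% of PBS NK cells held a Klf2 UMI. S1pr1 was 3.6-fold (1.10 to 18.6) and 2.94-fold (1.38 to 6.96) higher, and lay between 2.27 and 3.65 in the alternatives where it had enough UMIs. Tcf7 was 0.507 times (0.30 to 0.862) under the strict gate but 1.07 times under the wider gate. Satb1 was 1.03 times and 1.38 times (1.15 to 1.66). On the log2 scale the median ratio of the genes tested was -0.15, against 0.03 over all genes, under the strict gate, and 0.33 against -0.04 under the wider gate.

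Other measures moved with the NK cell ratios. Haemoglobin genes of NK cells summed to 766 CPM with ibudilast and 29.9 CPM with PBS under the strict gate, and dissociation stress genes to 17750 and 14896 CPM, with 7 of 12 stress genes higher. Under the wider gate haemoglobin genes summed to 538 and 18.2 CPM and stress genes to 17070 and 12174 CPM, with 11 of 12 higher. Without the cells rich in haemoglobin the strict-gate Klf2 ratio was 1.46. Oligodendrocyte genes summed to 280 CPM with ibudilast and 44.9 CPM with PBS under the strict gate, where 3 of the 3 tested were higher and 1 of the 4 listed genes was at 0 in PBS. They summed to 218 and 86.6 CPM under the wider gate, with 3 of 4 higher. The part of stress and of oligodendrocyte genes in the ratios was not tested. The killer cell genes Gzma, Gzmb, Nkg7 and Prf1 summed to 17051 CPM with ibudilast and 10054 CPM with PBS under the strict gate, with 3 of 4 higher. Under the wider gate they summed to 15414 and 8412 CPM, with 4 of 4 higher. Gzma was 2.12 and 2.40 times under the strict and wider gates. The part of killer cell genes in the ratios was not tested. Among effector and exhaustion genes, Ccl5 was at 10928 CPM with ibudilast and 4230 CPM with PBS under the strict gate (2.58-fold). Ctla4, an inhibitory receptor gene, was at 29.1 and 84.8 CPM (0.343 times). Of 25 effector and exhaustion genes 12 were higher and 6 lower under the strict gate, and 15 and 4 of 26 under the wider gate. Partner and signalling genes had 2 higher and 4 lower of 24, and 6 and 3 of 25, and residency genes 1 higher and 2 lower of 6 under each gate. Of 17 naive and memory genes outside the 9, 7 were higher and 2 lower under the strict gate, and 13 and 0 under the wider gate, with median log2 ratios of 0.25 and 0.47. Eomes, a factor of mature NK and memory T cells, was at 272 CPM with ibudilast and 172 CPM with PBS under the strict gate and 244 and 150 CPM under the wider gate, 1.58-fold and 1.63-fold.

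In T cells 3 of 9 genes were higher and 3 lower under the strict gate, against 22.7% and 17.1% of all genes, and 0 and 4 under the wider gate, against 15.8% and 11.0%. The median log2 ratio of the 9 was -0.03 against 0.02 over all genes under the strict gate, and -0.31 against 0.00 under the wider gate. The directions of Tcf7, Ccr7 and S1pr1 turned with the gate: 2.44, 2.06 and 1.62 times under the strict gate, and 0.932, 0.775 and 0.807 times under the wider gate. Macrophage genes summed to 2425 CPM with ibudilast and 1500 CPM with PBS in strict T cells, and to 3247 and 2519 CPM in wider T cells. Under each gate 4 of 7 of them were higher and 3 lower. The 3 lower were C1qa, C1qb and C1qc, which the gate itself limits. The 4 higher were Apoe, Lyz2, Csf1r and Cd68, at 1.74, 2.35, 2.36 and 1.80 times under the strict gate. Oligodendrocyte genes summed to 645 CPM with ibudilast and 314 CPM with PBS in strict T cells and to 367 and 134 CPM in wider T cells, with 4 of 4 higher under each gate. Haemoglobin genes summed to 85.1 and 26.7 CPM, with 3 of 4 higher, and to 69.1 and 12.2 CPM, with 4 of 4 higher. Stress genes summed to 11177 CPM with ibudilast and 13358 CPM with PBS in strict T cells, with 5 of 12 lower, and to 10055 and 9704 CPM in wider T cells, with 0 higher and 0 lower. The part of these 4 lists in the T cell ratios was not tested. Satb1 was 0.768 times (0.584 to 1.02) under the strict gate and 0.665 times (0.574 to 0.770) under the wider gate, yet 1.57 times when T subclasses were weighted alike. In CD8 T cells 4 genes were higher and 3 lower of 9 under the strict gate, against 27.3% and 19.8%, and 0 and 6 under the wider gate, against 19.2% and 11.7%. Satb1 was at 38.2 CPM with ibudilast and 57.9 CPM with PBS in CD8 T cells under the strict gate, 0.660 times (0.430 to 1.04), and at 41.1 and 87.2 CPM under the wider gate, 0.472 times (0.384 to 0.580), and lay below 1 in every alternative run, at 0.472 to 0.804. Lef1 in CD8 T cells was 0.532 times (0.201 to 1.56) and 0.363 times (0.207 to 0.628).

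Conventional CD4 T cells had 2 genes higher and 0 lower of 4 under the strict gate, against 24.8% and 25.2%, and 2 and 1 of 7 under the wider gate, against 23.1% and 19.6%. Klf2 was at 908 CPM with ibudilast and 588 CPM with PBS under the strict gate, 1.54-fold (1.24 to 1.93), and at 755 and 293 CPM under the wider gate, 2.58-fold (2.22 to 3.01). With under 2 C1q UMIs per cell the same ratio was 0.593, and in cells with no Foxp3, Ikzf2 or Il2ra UMI it was 7.82. Macrophage genes in these cells summed to 3350 CPM with ibudilast and 2050 CPM with PBS under the strict gate, and to 4727 and 3026 CPM under the wider gate. Under each gate 4 of 7 were higher, where the 7 include the C1q genes that the gate limits. The part of macrophage genes was not tested. Regulatory T cells had 0 higher and 1 lower of 2 under the strict gate, against 35.8% and 29.0%, with only 6 PBS cells. Under the wider gate, with 55 and 50 cells, 5 of 7 were higher, against 26.1%, and 0 lower, against 22.9%. Il7r there was at 185 CPM with ibudilast and 95.7 CPM with PBS, 1.93-fold (1.40 to 2.69). Klf2 turned with the gate, at 1308 and 1718 CPM (0.762 times) under the strict gate and 882 and 475 CPM (1.86-fold) under the wider gate. In regulatory T cells under the wider gate macrophage genes summed to 5696 CPM with ibudilast and 2905 CPM with PBS, with 4 of 7 higher, and stress genes to 10859 and 6814 CPM, with 10 of 12 higher. Oligodendrocyte genes summed to 466 and 40.6 CPM there, with 3 of the 3 tested higher, and haemoglobin genes to 78.4 and 1.62 CPM, with 3 of 4 at 0 in PBS. The part of these lists in the regulatory T cell ratios was not tested.

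B cells, 27 with ibudilast and 13 with PBS under the strict gate, had 0 higher and 4 lower of 4 genes, against 35.8% and 27.5%, and under the wider gate 0 and 4 of 6, against 21.9% and 37.1%. Ccr7 was 0.309 times (0.157 to 0.603) and 0.380 times (0.242 to 0.592), but 1.06 times when cells were thinned to 2000 UMIs. Stress genes in B cells summed to 11478 CPM with ibudilast and 14744 CPM with PBS under the strict gate, with 6 of 12 lower, and to 12887 and 17336 CPM under the wider gate, with 9 of 12 lower, and their part was not tested. Migratory dendritic cells had 2 higher and 1 lower of 5 under the strict gate, against 25.8% and 19.7%, and 1 and 1 of 7 under the wider gate, against 19.4% and 21.5%. Their Ccr7 ratio was 0.877 (0.823 to 0.935) and 0.955 (0.909 to 1.0). In macrophages 7 of the 9 genes were higher and 0 lower, with a median log2 ratio of 0.78 against 0.03 over all genes. The share of all genes called in macrophages is not given here. Tcf7 was at 0.811 CPM with ibudilast and 0.296 CPM with PBS in macrophages, from 18 UMIs in each library. Ccr7 was at 5.36 and 1.99 CPM, and Satb1 at 6.98 and 3.02 CPM. Killer cell genes in macrophages summed to 135 CPM with ibudilast and 43.8 CPM with PBS, and oligodendrocyte genes to 179 and 48.6 CPM, with 4 of 4 higher in each list. The part of these lists in the macrophage ratios was not tested.

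**Figure D5:**
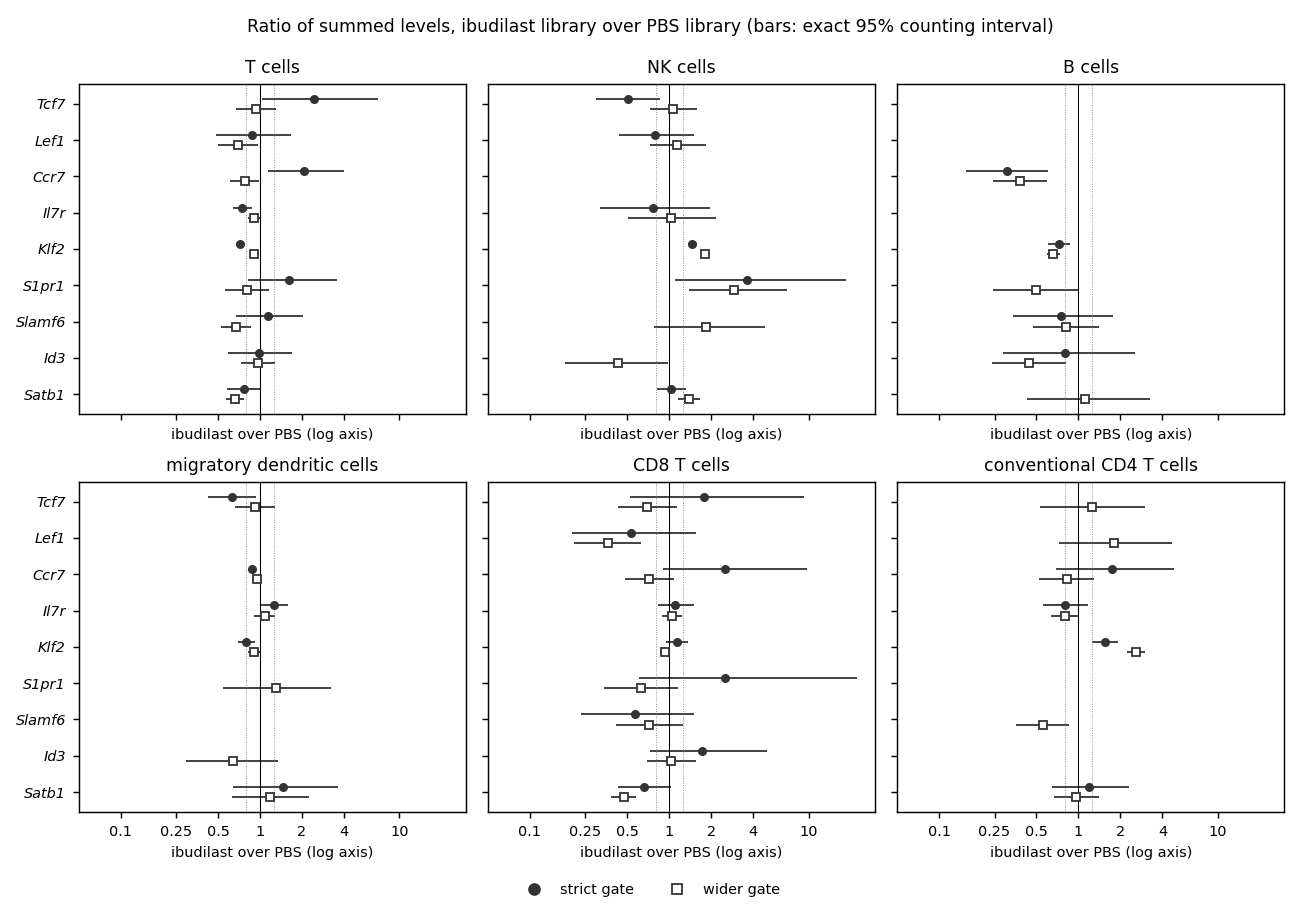
Ratio of levels, ibudilast over PBS, for each gene with at least 20 UMIs in 6 cell classes under the strict and the wider gate, with exact 95% counting intervals on a log axis and dotted lines at the limits for calling a gene lower or higher. Klf2 and S1pr1 lie above 1 in NK cells under both gates, and Tcf7, Ccr7 and S1pr1 change side in T cells.

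Among T cell lists outside the 9, under the strict gate 9 of 23 naive and memory genes were higher and 4 lower, but 3 and 7 of 25 under the wider gate, with median log2 ratios of 0.17 and 0.00. Gzma, a killer cell protease gene, was at 1091 CPM with ibudilast and 2311 CPM with PBS under the strict gate (0.472 times) and 0.598 times under the wider gate. The other killer cell genes did not all follow it. Under the strict and wider gates Gzmb was 0.603 and 0.777 times, Nkg7 1.02 and 1.17 times, and Prf1 0.965 and 1.45 times. Of the 4 genes 0 were higher and 2 lower under the strict gate, and 1 and 2 under the wider gate. Of 26 partner and signalling genes 2 were higher and 7 lower under the strict gate, and 2 and 2 of 28 under the wider gate. Effector and exhaustion genes had 5 higher and 8 lower of 28, and 3 and 6 of 28, and residency genes 2 higher and 3 lower of 8, and 2 and 1 of 8.

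Over gated classes of both libraries, taken as points that share library and depth, the pattern of Satb1 was most like that of Jak1, with Pearson correlations of 0.972 over 10 points under the strict gate and 0.943 over 22 under the wider gate. Serpinb9 was among the 3 genes most like Tcf7 under both gates, at 0.961 and 0.877. These correlations are descriptions and carry no test.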

How the data were processed

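The deposited files of each library held a matrix of whole-number counts of UMIs per gene and cell; per the file headers, the authors produced these counts using Cell Ranger 6.1.1, and the submitters' processing notes name the mm10 build. Gene and barcode lists were deposited alongside and gave names only. Cells with at least 300 genes, 500 UMIs and under 10% mitochondrial UMIs were kept. Scrublet (scanpy 1.11.5) marked 0 doublets in each library by its automatic threshold, so the top 6% of scores was left out (424 ibudilast and 489 PBS cells). Classes were set by marker genes, with the C1q limit as the strict gate; the wider gate was chosen after the data were seen. Counts were summed per class and library and divided by class totals. Ratios have exact conditional binomial intervals, levels exact Poisson intervals and shares Clopper-Pearson intervals, all at 95%. Barcodes that met the markers of 2 classes entered none. The ratio step was tested on simulated data. The members and gene lists were chosen with earlier results of these data known. Named genes were all members and, per list, up to 4 genes of at least 50 UMIs with the ratio farthest from 1, in T and NK cells and in the split by Tcf7. Likeness of pattern used log2(CPM + 10). The split of dendritic cells by Tcf7 and the choice of Bcl9l, Tcf12 and the Klf2 promoter were made after values were seen. Promoter windows came from RefSeq (GRCm38.p6). Analyses used Python 3.11.15, numpy 2.4.6, scipy 1.17.1 and pandas 2.3.3.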

Additional observations from a re-analysis of the deposited data

Results flagged for a closer look

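Klf2 went one way in some cell classes and the other way in others, under both gates and with every counting interval apart from 1. Ibudilast over PBS, it was 1.47 and 1.81 in NK cells and 1.54 and 2.58 in conventional CD4 T cells, under the strict and the wider gate. It was 0.523 and 0.468 in gamma-delta T cells, 0.589 and 0.618 in other T cells, and 0.727 and 0.660 in B cells. These values were not all stable: the conventional CD4 ratio was 0.593 under 2 C1q UMIs and the B cell ratio 1.10 with no C1q limit. Regulatory T cells changed side with the gate, at 0.762 under the strict and 1.86 under the wider gate. The difference between the classes was not tested, since each group is 1 library, and the gamma-delta and B cell classes are small.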

How the results depend on the processing

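Of 379 alternative ratios, 47 put a gene called under the strict gate on the other side of 1. Of the others, 275 stayed within the counting interval of the strict-gate value and 57 moved out of it. Genes not called that crossed 1 are counted among these others, such as Slamf6 in T cells, at 1.14 under the strict gate and 0.671 with the wider C1q limit. Scaling by median of ratios, keeping doublets and leaving out cells rich in haemoglobin moved none of 39 ratios each. The cause of the changes below was not tested. With under 2 C1q UMIs, Il7r in T cells was 1.93, and Klf2 1.5 in T cells, 5.98 in regulatory and 0.593 in conventional CD4 T cells. With no C1q limit, Tcf7 was 0.929 in T, 0.781 in CD8, 1.06 in NK and 1.03 in migratory dendritic cells, Ccr7 0.999 in T and 0.929 in CD8, S1pr1 0.905 in T and 0.661 in CD8, Il7r 1.06 in T and 1.12 in NK, Slamf6 1.23 in CD8 and 1.29 in B, Klf2 1.10 in B, and Satb1 0.916 in migratory dendritic cells. With the wider C1q limit, Tcf7 was 0.932 in T, 0.695 in CD8 and 1.07 in NK, Ccr7 0.775 in T, 0.722 in CD8 and 0.824 in CD4, S1pr1 0.807 in T and 0.626 in CD8, Klf2 1.86 in regulatory, Lef1 1.14 and Il7r 1.04 in NK cells. That limit and its repeat without the cell holding most UMIs of a gene in each library were both added after the data were seen. The repeat gave Tcf7 0.943 in T, 0.761 in CD8 and 1.07 in NK, Ccr7 0.755 in T, 0.690 in CD8 and 0.676 in CD4, S1pr1 0.771 in T and 0.532 in CD8, Id3 0.775 in CD8, Klf2 1.86 in regulatory and Lef1 1.20 in NK cells. Thinned to 2000 UMIs, Ccr7 and Id3 in B were 1.06 and 1.16, Klf2 in regulatory 1.02 and Il7r in migratory dendritic cells 0.959. With each cell weighted alike Id3 in B was 1.07, and with T subclasses weighted alike S1pr1 was 0.861 and Satb1 1.57. Counts of genes called, with the strict-gate count first, changed as follows. In T cells 6 became 1 with no C1q limit. In CD8 T cells 7 became 3 with the stricter cell filter, 3 under 2 C1q UMIs, 4 with no C1q limit and 2 when thinned. In regulatory T cells 1 became 0 with each cell weighted alike, 7 with no UMI minimum, 2 with the stricter filter, 5 with the wider limit and 6 in its repeat. In conventional CD4 T cells 2 became 6 with no minimum, 1 under 2 C1q UMIs, 5 with no limit, 1 without Foxp3, Ikzf2 or Il2ra, and 4 in the repeat. In NK cells 5 became 8 with no minimum and 2 under 2 C1q UMIs, when thinned and with an Ncr1 gate. In B cells 4 became 2 with each cell weighted alike, 9 with no minimum, 2 with the stricter filter, 1 under 2 C1q UMIs, 2 with no limit and 0 when thinned. In migratory dendritic cells 3 became 1 in the repeat. No paired analysis was possible because each group is 1 library. Depth limits S1pr1, Lef1 and Tcf7, which had few UMIs per class.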
